A study of Mus musculus with 79 samples.

Results

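The citric acid cycle was followed through 9 genes of its enzymes (Cs, Idh2, Idh3a, Idh3b, Ogdh, Suclg1, Sucla2, Fh1 and Mdh2), of 22335 gene symbols on the array. They were chosen by symbol, and each had 1 probeset. RNA of quadriceps muscle was measured with 79 Affymetrix arrays of type Mouse Gene 1.0 ST. The mice were 29-week-old males of the BXD family, inbred strains descended from a cross of C57BL/6J and DBA/2J, and of both parental strains. On the chow diet (CD, Harlan 2018) there were 42 strains with 1 array each. On the high fat diet (HFD, Harlan 06414), which began at 8 weeks of age, there were 37 strains with 1 array each, all of them also measured on CD. All groups were fasted overnight and none carried an engineered allele or drug. Each array was a pool of about 5 animals, so a strain had 1 value per diet, and differences between animals of a strain cannot be told apart from it. Extraction and hybridization were done in 2 batches, which the titles give, batch 1 holding 18 arrays of CD and 17 of HFD, and batch 2 holding 24 and 20.

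The cycle runs in the mitochondrial matrix. Citrate synthase joins acetyl groups from carbohydrate or fat to oxaloacetate, isocitrate dehydrogenase and the oxoglutarate dehydrogenase complex release carbon dioxide and reduce NAD, succinyl-CoA synthetase makes a nucleoside triphosphate, and fumarase and malate dehydrogenase restore oxaloacetate. In skeletal muscle the reduced carriers feed the respiratory chain, and oxidative fibres hold more of these enzymes than glycolytic ones.

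Values are scores that behave as a log-type measure. The 35556 probesets of each array average 8.0 with an SD of 2.0. A difference of 1 unit equals a doubling if the log2 values of that array had an SD of 2.0 before scaling, which is not stated, so folds are called nominal. All 9 enzymes lay between the 94.6 and the 99.6 percentile of the probesets by mean value, so none was dim. Fast fibre genes, which mark quadriceps, had mean values of 14.264 to 14.595 over all arrays. The array is a bulk measure, in which fewer cells of a type and less RNA per cell cannot be told apart. Arrays correlated with each other between 0.961 and 0.992. The batch term of limma called 0 probesets, with 0 at an unadjusted p under 0.05, and so did the diet by batch interaction, whose p over the 9 enzymes ranged from 0.689 to 0.989. The deposited values therefore behave as if centred by batch within each diet, and a real batch by diet difference would not be seen in them. Lep, which encodes leptin and is raised in fat tissue of obese mice, was 1.582 ± 0.185 (SE) units higher on HFD.

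On HFD 6 of the 9 transcripts were higher and 0 lower at a limma adjusted p below 0.05, against 18.9% of all probesets called higher and 19.3% called lower (38.1% in either direction). Among the 3556 brightest probesets, where all 9 enzymes lie, 569 were called higher and 310 lower. The median difference of the 9 enzymes was 0.065 units, and that of all probesets was -0.001. Differences were small, with nominal folds from 1.03 to 1.1 in the 6 genes called. The largest were in both subunits of succinyl-CoA synthetase, and Cs and Idh2, the entry enzyme and the NADP-linked isocitrate dehydrogenase, were not called.

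The promoter sequences of the 2 enzymes with the largest diet difference in score units and of 2 enzymes of the last steps are shown because these 4 transcripts were all called higher on HFD. They are the 250 bases before the start in RefSeq, build GRCm38.p6, and capitals mark exact matches, on either strand, to CGGAAG, the core letters read by ETS factors such as GABPA, to AAGGTCA, a site read by the ERR receptors, or to the palindromic motif of NRF1, the nuclear respiratory factor.
Suclg1 (chr6:73248255-73248504, + strand): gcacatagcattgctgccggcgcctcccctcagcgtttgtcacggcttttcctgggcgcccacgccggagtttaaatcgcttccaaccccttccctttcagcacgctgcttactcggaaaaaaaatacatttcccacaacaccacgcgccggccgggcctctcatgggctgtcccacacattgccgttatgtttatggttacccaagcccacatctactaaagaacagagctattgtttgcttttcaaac
Sucla2 (chr14:73552536-73552785, + strand): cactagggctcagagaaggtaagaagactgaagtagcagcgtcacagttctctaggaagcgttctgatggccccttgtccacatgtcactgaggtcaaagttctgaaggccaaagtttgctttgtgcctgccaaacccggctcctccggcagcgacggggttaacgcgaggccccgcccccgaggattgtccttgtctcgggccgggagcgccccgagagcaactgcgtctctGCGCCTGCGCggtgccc
Fh1 (chr1:175625636-175625885, - strand): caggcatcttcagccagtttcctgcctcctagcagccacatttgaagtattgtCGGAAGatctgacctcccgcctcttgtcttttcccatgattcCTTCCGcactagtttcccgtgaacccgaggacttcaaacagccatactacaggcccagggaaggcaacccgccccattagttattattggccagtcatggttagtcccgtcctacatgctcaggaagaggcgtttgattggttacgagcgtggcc
Mdh2 (chr5:135778399-135778648, + strand): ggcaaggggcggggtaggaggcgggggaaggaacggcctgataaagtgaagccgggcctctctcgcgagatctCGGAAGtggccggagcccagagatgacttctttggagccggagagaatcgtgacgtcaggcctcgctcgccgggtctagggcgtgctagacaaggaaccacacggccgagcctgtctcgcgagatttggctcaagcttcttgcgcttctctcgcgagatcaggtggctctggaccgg
A window was found for 8 of the 9 enzymes, the exception being Idh3a. CGGAAG was in the window (250 bases before and 50 after the start) of 5 of the 8, Idh2, Idh3b, Ogdh, Fh1 and Mdh2, where 18.8% of all genes hold it. CCAAT, the letters read by NFY, was also in 5 of the 8 (Cs, Idh2, Idh3b, Ogdh and Fh1), where 41.1% of genes hold it. AAGGTCA was in the window of Ogdh alone (5.38% of genes) and the NRF1 motif in that of Sucla2 alone (5.19% of genes), 17 bases before the start. In the Suclg1 window, the gene with the largest diet difference, 0 of these 4 motifs was found. A match is a description of letters and says nothing of binding.

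Cs encodes citrate synthase, whose activity is widely used as a measure of mitochondrial content. Its values ran from 13.454 through a median of 13.758 to 13.916 on CD, and from 13.566 through 13.786 to 13.96 on HFD. The ranges overlapped nearly completely. The means were 13.738 ± 0.098 (SD, n = 42) on CD and 13.775 ± 0.099 (n = 37) on HFD. The difference of 0.037 units (95% interval -0.009 to 0.083) had a limma adjusted p of 0.2, and 23 of 37 strains were higher on HFD.

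Isocitrate is oxidised by the NAD-linked enzyme, of which Idh3a encodes the catalytic and Idh3b a second subunit, and by the NADP-linked mitochondrial enzyme Idh2. Idh3a ran from 12.907 through 13.22 to 13.552 on CD and from 12.924 through 13.281 to 13.57 on HFD, and the lowest array on each diet was that of BXD43. The HFD arrays sat slightly higher within an almost identical range. Idh3a was 0.057 ± 0.026 (SE) units higher on HFD, which missed the threshold (limma adjusted p = 0.069), and 29 of 37 strains were higher, which were all 12 strains with both arrays in batch 1, 11 of 17 with both in batch 2 and 6 of 8 with arrays in different batches. With the strain as a replicate block, which compares each strain with itself, its adjusted p was 0.00548. Idh3b went from 13.755 ± 0.081 (SD, n = 42) on CD to 13.802 ± 0.064 (n = 37) on HFD. This rise of 0.047 units was called (adjusted p = 0.0307), and it was not called when the values were quantile normalized again.

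Idh2 stood apart in its spread. It ran from 11.382 in BXD87 through 12.12 to 12.674 in BXD50 on CD, and from 11.157 in BXD56 through 12.082 to 12.546 in BXD71 on HFD. These ranges of 1.292 and 1.389 units compare with 0.284 to 0.646 units in the other 8 enzymes. The mean difference between diets was -0.019 units with a 95% interval of -0.162 to 0.123 (adjusted p = 0.858), so a change the size of that of Suclg1 lies outside the interval only on the upward side. Single strains differed by far more in either direction, from -0.947 units in BXD56 to 0.766 in BXD81. Idh2 was higher on HFD in 15 of 37 strains, 7 of 12 with both arrays in batch 1, 8 of 17 with both in batch 2 and 0 of 8 with arrays in different batches.

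Ogdh encodes the first component of the oxoglutarate dehydrogenase complex, which turns oxoglutarate into succinyl-CoA. It ran from 13.196 through 13.379 to 13.549 on CD and from 13.308 through 13.455 to 13.686 on HFD. The lowest CD array was C57BL/6J. The rise of 0.085 ± 0.02 (SE) units was called (adjusted p = 0.000515), with 29 of 37 strains higher.

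Succinyl-CoA synthetase joins a shared alpha subunit, encoded by Suclg1, to a beta subunit that sets the nucleotide, and Sucla2 encodes the ATP-forming one. Suclg1 ran from 11.166 through 11.377 to 11.613 on CD and from 11.171 through 11.488 to 11.779 on HFD. The diets overlapped over most of the range, but the HFD median lay above most CD arrays, and the lowest HFD array, that of BXD56, lay far below the others. Suclg1 rose by 0.133 ± 0.028 (SE) units (adjusted p = 8.02e-05, nominal fold 1.1), with 31 of 37 strains higher. Sucla2 ran from 11.89 through 12.11 to 12.438 on CD and from 12.025 through 12.209 to 12.603 on HFD. BXD90 was the lowest array on both diets. Sucla2 rose by 0.108 ± 0.028 units (adjusted p = 0.0011) and was higher in 32 of 37 strains, the most of any of the 9 enzymes, with all 12 strains of batch 1 among them.

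Fh1 encodes fumarase and Mdh2 the mitochondrial malate dehydrogenase, which close the cycle. Fh1 ran from 11.994 through 12.234 to 12.445 on CD and from 12.076 through 12.3 to 12.468 on HFD. BXD75 was lowest and DBA/2J highest on both diets. The rise of 0.065 ± 0.024 (SE) units had an adjusted p of 0.0225, with 27 of 37 strains higher. Mdh2 ran from 13.871 through 14.163 to 14.364 on CD and from 14.017 through 14.237 to 14.44 on HFD. Its ranges also overlapped, and its rise of 0.087 ± 0.026 units was called (adjusted p = 0.00533), with 28 of 37 strains higher. Within batch 2 alone Ogdh, Suclg1, Sucla2 and Mdh2 were called, and within batch 1 alone Suclg1 was the 1 gene called.

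**Figure D1:**
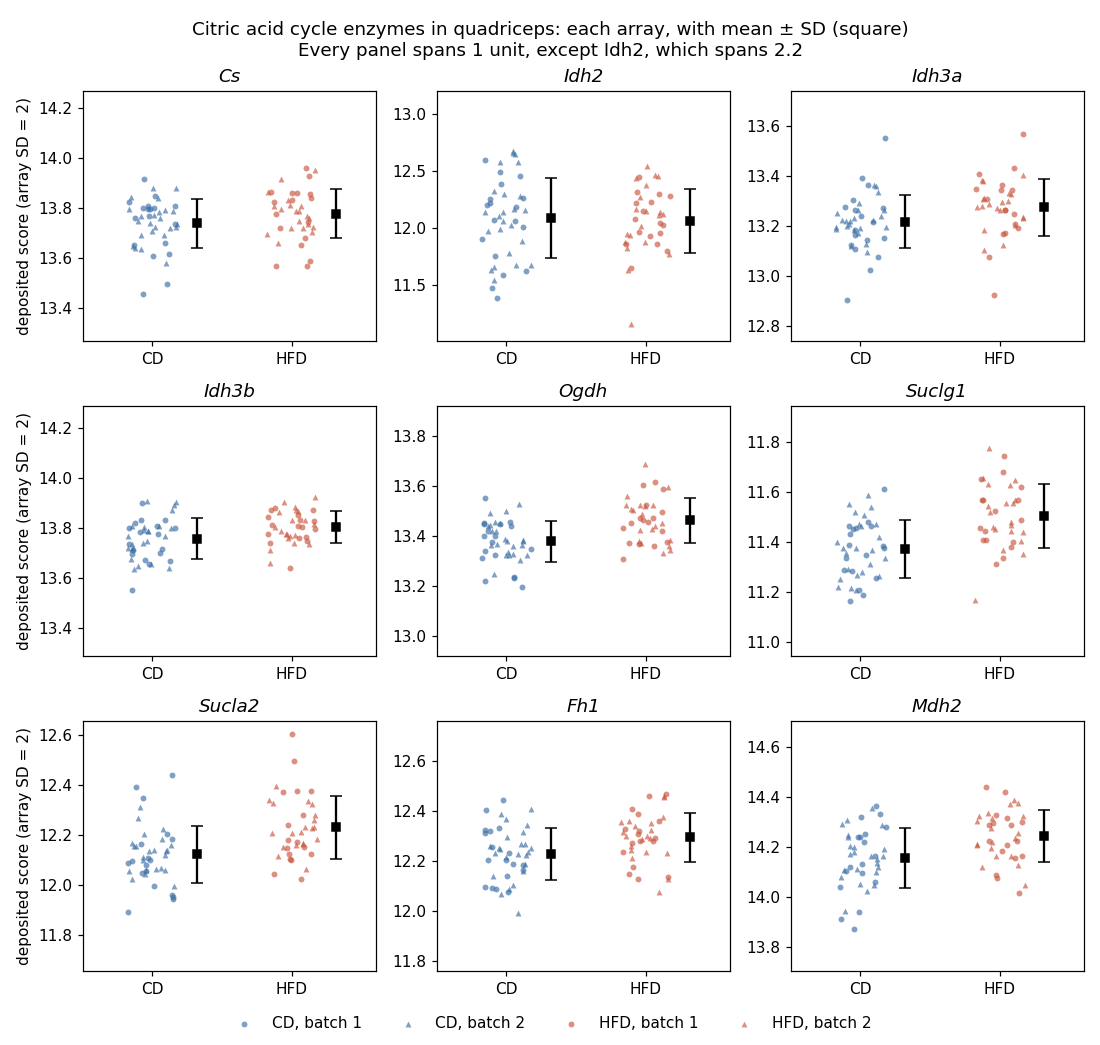
Deposited score of each of the 9 enzymes on every array (vertical axis), for CD (blue, 42 arrays) and HFD (red, 37 arrays), with circles for batch 1, triangles for batch 2 and a black square with bars for the mean ± SD. The diets overlap in every panel, the HFD mean is higher by 0.133 units in Suclg1, and Idh2 has the widest spread.

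The 9 other enzymes of the cycle gave a similar count, with 5 called higher and 0 lower and a median difference of 0.066 units. Dlst, the second component of the oxoglutarate dehydrogenase complex, rose by 0.067 units (adjusted p = 0.0314). Suclg2, the GTP-forming partner of Suclg1, rose by 0.103 units (adjusted p = 0.026), but its second probeset was not called (adjusted p = 0.994). In succinate dehydrogenase, the membrane subunits Sdhd (0.103, adjusted p = 0.0101) and Sdhc (0.088, adjusted p = 0.0476) were called, whereas the flavoprotein Sdha (0.015) and the iron-sulphur subunit Sdhb (0.066) were not. Idh3g (0.006), the remaining subunit of the NAD-linked isocitrate dehydrogenase, and Dld (0.053) were not called either. With strain as a fixed replicate block Sdhb was called too (0.091 ± 0.032 (SE), limma adjusted p = 0.0222), and Sdhc was not called without BXD63 (adjusted p = 0.0659) or without the parental strains (0.0515). With limma 0 of these 9 were called within either batch alone, where 2 in batch 1 and 3 in batch 2 had an unadjusted p under 0.05, and 1 after repeated quantile normalization.

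Around the cycle 16 of 17 genes of fatty acid oxidation were called higher and 0 lower, with a median difference of 0.225 units, and Etfdh was not called without the parental strains (adjusted p = 0.0796). Ech1, Decr1 and Acaa2, which act on unsaturated or shortened acyl chains, led the list at 0.551, 0.46 and 0.365 units. Of 11 genes of pyruvate entry and anaplerosis 1 was called higher, Dlat of the pyruvate dehydrogenase complex (0.073), and 1 lower, pyruvate carboxylase Pcx (-0.155), with a median of 0.025. Of 6 cytosolic counterparts Aco1 (0.128) was called, and of 19 respiratory chain genes 5 were called higher, led by Cyc1 (0.13) and Cox5b (0.103), and 1 lower, Atp5o (-0.106). With the fixed strain block Pdhx (adjusted p = 0.0295) and Idh1 (0.0354) were called higher too, and without BXD63 Dlat was not called (adjusted p = 0.0568). Of 12 regulators of mitochondrial genes Esrrb (0.191) and Ppargc1b (0.139) were called higher and 0 lower. Of all probesets 18.9% were called higher, a share that the count of regulators does not exceed.

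Markers of adipocytes and macrophages moved with diet as well. Of 12 adipocyte genes 8 were called higher and 2 lower (median 0.287), and their mean level ran from 9.717 to 10.922 on CD and from 9.815 to 11.283 on HFD. Of 8 macrophage genes 6 were called higher and 0 lower (median 0.167), with mean levels of 8.107 to 8.806 on CD and 8.282 to 9.136 on HFD. Endothelial genes were called higher in 3 of 7, red blood cell genes in 1 of 6 and fibroblast and matrix genes in 1 of 7, where 18.9% of all probesets were called higher. With the fixed strain block Col3a1 (adjusted p = 0.0394) and the macrophage gene Lyz2 (0.0173) were called higher too, which made 2 of 7 fibroblast and 7 of 8 macrophage genes, and with the random strain block the endothelial gene Esam was (0.0409). Without the parental strains the macrophage gene Csf1r was not called (adjusted p = 0.0562). Over the 37 strains, the diet difference of 0 of the 9 enzymes was called with the diet difference of the adipocyte mean, with r from -0.064 in Idh2 to 0.229 in Fh1 and 0 at an unadjusted permutation p under 0.05. For this relation 0.273% of all probesets were called positive. The part of the other cell types in the diet differences of the enzymes was not tested.

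The diet difference was then examined strain by strain. All 9 enzymes were higher on HFD in 8 strains, BXD75, BXD64, BXD99, BXD70, BXD44, BXD87, BXD66 and C57BL/6J, and at least 7 were higher in 24 of the 37. The fewest were 2 of 9, in BXD68 and BXD98. The mean difference over the 9 genes ran from -0.101 in BXD56 through a median of 0.078 to 0.218 in C57BL/6J and was above 0 in 28 strains. Much of that order was carried by Idh2, whose paired differences had an SD of 0.398 units against 0.078 to 0.126 in the others. Over the other 8 genes the mean ran from -0.04 in BXD68 through 0.088 to 0.18 in BXD44, was above 0 in 31 strains, and all 8 rose together in 11. Each strain had 1 array per diet, so a strain's own difference has no replicate and no strain was tested. Without BXD63, which had 5 of the 9 higher, the same 6 enzymes were called.

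**Figure D2:**
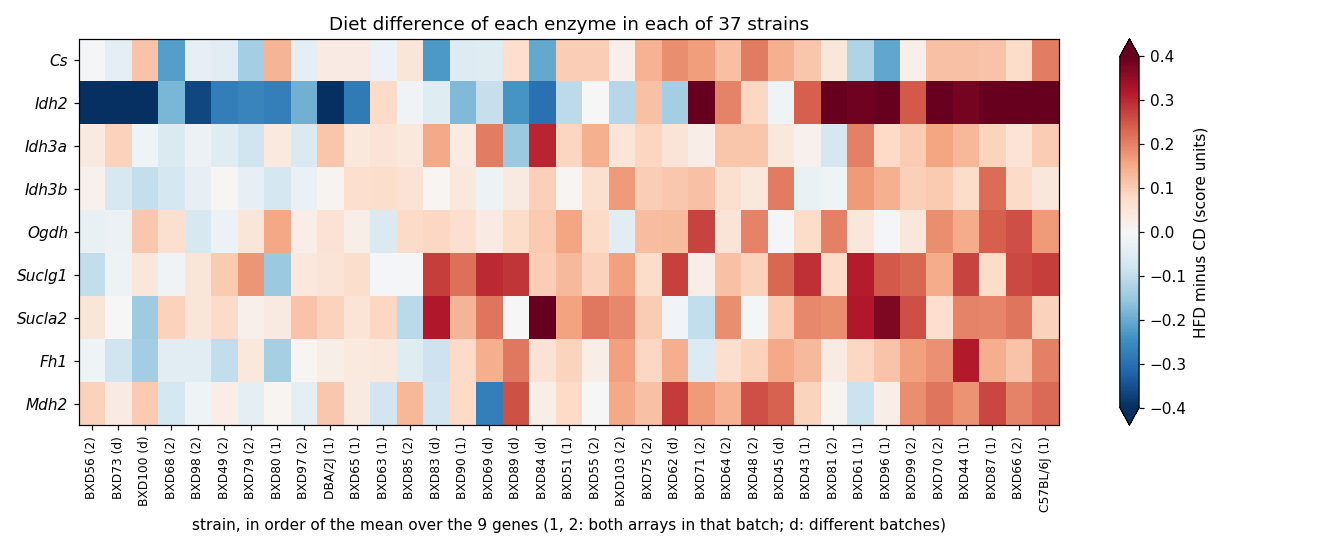
HFD minus CD difference of each enzyme (rows) in each of 37 strains (columns, ordered by the mean over the 9 genes), in score units, with red for higher on HFD and colours saturating at 0.4 units. The tag after a strain gives the batch of both its arrays, or d for different batches. The row of Idh2 swings from -0.947 in BXD56 to 0.766 in BXD81, and the rows of Suclg1 and Sucla2 are above 0 in 31 and 32 strains.

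Whether strains kept their level across diets was tested in 2 ways. The limma strain term, with diet and batch in the model, called Idh3a (adjusted p = 0.000675) and Suclg1 (adjusted p = 0.0211), 2 of 9 against 13.6% of all probesets. The adjusted p of the others ran from 0.0574 in Fh1 to 0.638 in Cs. The correlation of CD with HFD values over the 37 strains called 5 of 9, against 10.6% of all probesets, each p by permutation and adjusted over all probesets. Idh3a had the highest r of the 9, with r = 0.69 (adjusted p = 0.000988), rho = 0.701 (adjusted p = 0.000831) and r = 0.607 without its 2 farthest strains. Its r was 0.931 in strains with both arrays in batch 1, 0.478 with both in batch 2 and 0.476 in different batches.

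Suclg1 followed with r = 0.526 (permutation adjusted p = 0.0146) and rho = 0.515 (adjusted p = 0.0229), and r = 0.46 without the 2 farthest strains. Within batches its r was 0.425 (batch 1), 0.723 (batch 2) and 0.233 (different batches). Idh2, Idh3b, Ogdh and Sucla2 also had a positive r in each batch class, from 0.096 to 0.755. Fh1 (r = 0.478, permutation adjusted p = 0.0319), Idh3b (0.468, adjusted p = 0.0394) and Ogdh (0.462, adjusted p = 0.0409) were called by r, and of these Idh3b alone by rho (0.499, adjusted p = 0.0265). By rho 3 of 9 enzymes and 9.27% of all probesets were called. The r of Fh1 fell to 0.303 without DBA/2J and BXD75, its extreme strains, and was -0.046 in strains with arrays in different batches. With arrays centred on their medians, Idh3a remained the 1 gene called. Sucla2 (r = 0.422), Mdh2 (0.275), Idh2 (0.22) and Cs (0.069) were not called, and the wide spread of Idh2 was thus not shown to be kept by a strain from one diet to the other.

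**Figure D3:**
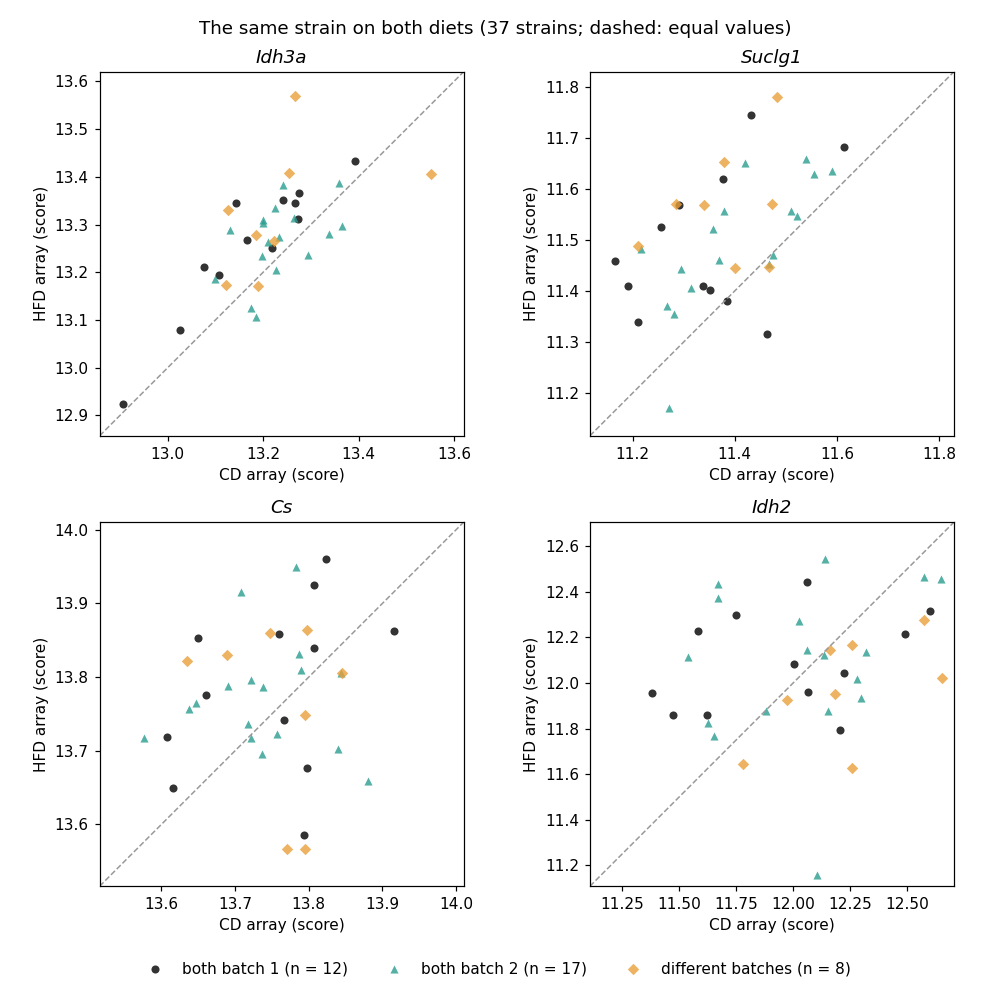
Score of Idh3a, Suclg1, Cs and Idh2 on the CD array (horizontal axis) and the HFD array (vertical axis) of the same strain, for 37 strains marked by the batches of their arrays, with a dashed line at equal values. Most points lie above the line for Idh3a (29 of 37 strains, r = 0.69) and Suclg1 (31 of 37), and Cs (r = 0.069) and Idh2 (r = 0.22) scatter.

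The parental strains were compared in the same kind of fit. C57BL/6J minus DBA/2J ran from -0.211 ± 0.093 (SE) units in Mdh2 to 0.053 ± 0.093 in Suclg1, and 0 of 9 enzymes were called by limma against 1.26% of all probesets. Mdh2 was the 1 enzyme with an unadjusted p under 0.05 (p = 0.0288, limma adjusted p = 0.477). It read 14.062 in C57BL/6J and 14.333 in DBA/2J on CD, and 14.288 and 14.44 on HFD. Its 95% interval was -0.4 to -0.023, and Ogdh followed at -0.145 (95% interval -0.293 to 0.002). Each parent had 1 array per diet, and the spread was borrowed from all paired strains.

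Covariation between enzymes over strains was measured within each diet after batch means were removed, with permutation p-values adjusted over the 319995 relations of the 9 enzymes with all other probesets. On CD the 36 pairs had a median r of 0.364, where the median over all probesets was -0.004, and 10 pairs were called positive and 0 negative. On HFD the median was 0.253 against 0.01, with 7 pairs called positive and 1 negative. Of all relations of an enzyme with any probeset, 0.912% were called positive on CD and 0.775% on HFD (1.84% and 1.83% in either direction). By rho 9 pairs were called on CD, all positive, and on HFD 6, of which Cs with Sucla2 was negative (rho = -0.572, adjusted p = 0.0321), where 0.519% and 0.535% of all relations were called positive.

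The closest pair on both diets was Cs and Mdh2, the enzymes that use and restore oxaloacetate. Their r was 0.794 on CD (permutation adjusted p = 0.00355, rho = 0.786) and 0.665 on HFD (adjusted p = 0.00796, rho = 0.722), with 0.721 and 0.679 without the 2 farthest arrays. In batches 1 and 2 it was 0.759 and 0.86 on CD, and 0.749 and 0.541 on HFD. Ogdh joined them, at r = 0.727 with Cs and 0.636 with Mdh2 on CD and 0.548 and 0.563 on HFD, all 4 called. Idh3a with Sucla2 formed a second tie (0.527 on CD, adjusted p = 0.0406, and 0.641 on HFD, adjusted p = 0.00796), which on CD was not called by rho (0.451, adjusted p = 0.119). The r of this pair was higher in batch 1 than in batch 2, at 0.607 and 0.267 on CD, and 0.731 and 0.368 on HFD.

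Subunits of one enzyme were not the closest pair on either diet. Idh3a and Idh3b had r = 0.355 on CD (permutation adjusted p = 0.243) and 0.643 on HFD (adjusted p = 0.00638), which fell to 0.514 without the 2 farthest arrays and was not called by rho (0.518, adjusted p = 0.0645). Suclg1 and Sucla2 had r = 0.56 on CD (adjusted p = 0.0148, rho = 0.521) and 0.409 on HFD (adjusted p = 0.178). The last 2 enzymes of the cycle, Fh1 and Mdh2, had r = 0.572 on CD (adjusted p = 0.00972) and 0.445 on HFD (adjusted p = 0.126). The differences of these r between diets were not tested.

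The lowest pair on both diets was Cs and Sucla2. Their r was -0.374 on CD (permutation adjusted p = 0.213) and -0.618 on HFD (adjusted p = 0.00934, rho = -0.572), the 1 negative pair called. Within batches it was -0.611 in batch 1 and 0.19 in batch 2 on CD, and -0.815 and -0.082 on HFD. The 8 arrays with the highest Sucla2 minus Cs value, led by BXD84 on HFD, BXD92a on CD and BXD95 on CD, were all of batch 1. Without the 2 farthest strains r was -0.111 on CD (BXD92a and BXD95) and -0.504 on HFD (BXD83 and BXD84). Over all 36 pairs the median r was 0.28 in batch 1 and 0.53 in batch 2 on CD, with 10 and 0 pairs below 0, and 0.154 and 0.363 on HFD, with 15 and 4 below 0. The part of the batch in these relations was not tested.

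**Figure D4:**
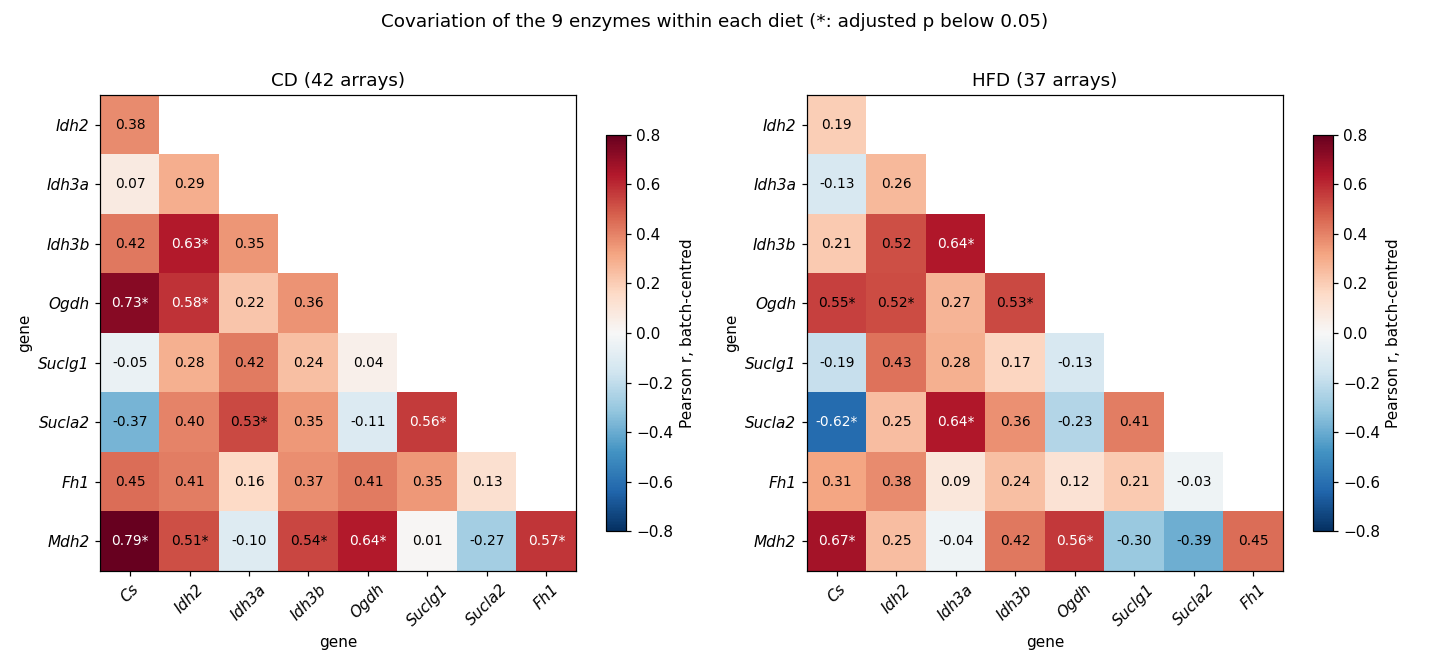
Pearson r, after batch means were removed, of each pair of the 9 enzymes over 42 CD arrays (left) and 37 HFD arrays (right), in red for positive and blue for negative, with a star where the adjusted permutation p was below 0.05. Cs, Ogdh and Mdh2 form a positive group, and Cs with Sucla2 is the lowest pair at -0.374 on CD and -0.618 on HFD.

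Among genes outside the 9, those whose mean r with the 9 enzymes over both diets was highest were Atp5a1 (0.498), Uqcrc2 (0.496), Acadm (0.488), Cpt1b (0.484) and Cpt2 (0.472), where the median of all genes was 0.01 and the 99th percentile 0.268. They encode a subunit of ATP synthase, a subunit of complex III and 3 enzymes of fatty acid oxidation. Among the enzymes themselves, the mean r with the other 8 was highest for Idh3b (0.397, with 41 non-member genes higher) and Idh2 (0.393, 42 higher), and lowest for Sucla2 (0.1, 2929 higher).

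Partners other than the enzymes followed here were then read, some of them also of the cycle, and the genes named were chosen after their values were seen. Sucla2 went with Sdhb (0.771 on CD and 0.698 on HFD) and, on CD, with Pdhb of pyruvate dehydrogenase (0.794), all called. On HFD the highest r of Sucla2 among the 11 genes of pyruvate entry and anaplerosis was 0.526, with Pdha1, the 1 gene of that list called. Mdh2 went with Uqcrc1 of complex III (0.857 on CD and 0.75 on HFD) and Idh3b with Atp5a1 (0.814 and 0.717). The cytosolic malate dehydrogenase Mdh1 went with Idh2, Idh3a, Idh3b and Suclg1 on both diets, at r from 0.524 to 0.76, and the cytosolic aspartate aminotransferase Got1 with Cs and Ogdh on both diets, at 0.521 to 0.689, and with Mdh2 on CD (0.606). Malic enzyme Me1, which makes cytosolic NADPH, ran opposite to Mdh2 on both diets (-0.66 on CD and -0.568 on HFD) and to Cs, Idh2 and Ogdh on CD (-0.559, -0.565 and -0.546), each called by permutation. Within each batch these r of Me1 kept their sign, from -0.385 to -0.774. They rest on 1 probeset of Me1, with means of 12.398 on CD and 12.403 on HFD. A second one, with a mean of 12.397, was not read for these relations.

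Among the gene lists read, Idh2 had its highest r outside the cycle, with Acadm on CD (0.88) and the myosin Myh2 on HFD (0.816). On CD its r with the other 8 enzymes had a median of 0.403, whereas with 17 genes of fatty acid oxidation it was 0.738, all 17 called, and with 9 slow fibre genes 0.714, all 9 called. Of all probesets 0.923% were called positive with Idh2 on CD. On HFD the medians were 0.319 for the enzymes, 0.671 for fatty acid oxidation (12 of 17 called) and 0.561 for slow fibre (5 of 9 called), against 0.436% of all probesets. By rho 17 and 8 were called on CD, and 12 and 2 on HFD. With the 19 respiratory chain genes the median r of Idh2 was 0.542 on CD (12 called) and 0.404 on HFD (4 called). The differences between these lists were not tested.

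Single genes were then read. With Acadm, the medium-chain acyl-CoA dehydrogenase, the r of Idh2 was 0.88 on CD (permutation adjusted p = 0.00355, rho = 0.9) and 0.746 on HFD (adjusted p = 0.00449, rho = 0.8), and 0.862 and 0.763 without the 2 farthest arrays. It lay between 0.731 and 0.903 in each batch of each diet. With Myh2, the myosin of fast oxidative fibres, it was 0.826 on CD (rho = 0.851) and 0.816 on HFD (rho = 0.715, and r = 0.704 without BXD71 and BXD56), and in batches 1 and 2 it was 0.797 and 0.858 on CD and 0.638 and 0.872 on HFD. With Esrrg, a nuclear receptor of oxidative muscle, it was 0.789 and 0.755, the highest of the 12 regulators on both diets. Of these 12, 5 were called positive on CD (median r = 0.314) and 3 on HFD (median 0.154), and the coactivator Ppargc1a was not, at 0.089 and 0.157. With Tnnt1, the slow troponin T and the highest of the 9 slow fibre genes on HFD, it was 0.733 on CD and 0.636 on HFD, where batches 1 and 2 gave 0.498 and 0.794. The other slow fibre genes ran down to 0.373 on HFD, in Tpm3. Of the 11 fast fibre genes Myh2 and Myh1 were called positive by r on both diets and 0 were called negative. On HFD Myh1 was not called by rho (0.408, permutation adjusted p = 0.187), and its r of 0.544 was 0.412 without the 2 farthest arrays. The other 9 ran from -0.34 to -0.01 on CD and from -0.429 to 0.021 on HFD, and the median over the 11 was -0.164 on CD and -0.12 on HFD.

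Of the other enzymes, Ogdh was called with 7 of 9 slow fibre genes on CD (median r = 0.545, against 0.948% of all probesets), Mdh2 with 3 (against 1.3%), Cs with 1 (against 1.09%) and the remaining 5 with 0. On HFD, 0 slow fibre genes were called with any enzyme but Idh2. With the 17 genes of fatty acid oxidation, Sucla2 was called in 9 on CD, Ogdh and Suclg1 in 7, Idh3b in 5, Mdh2 in 4, Fh1 in 2, and Cs and Idh3a in 1. On HFD Suclg1 was called in 12, Idh3b in 5, Idh3a, Sucla2 and Fh1 in 3, Ogdh in 1, and Cs and Mdh2 in 0. Of all probesets 0.833% were called with Suclg1 on CD, and the share ran from 0.408% (Fh1) to 1.65% (Sucla2) on CD over the enzymes other than Idh2, and from 0.152% (Fh1) to 2.01% (Suclg1) on HFD. Of the 9 slow fibre genes 1 was called higher with diet (Tpm3) and 0 lower, with a median of -0.176 units. The other probesets of Tpm3 had differences of -0.188 and -0.07 that were not called, and the second probeset of Myh7 was called lower (-0.221, limma adjusted p = 0.000138). The mean level of the list ran from 8.648 to 10.842 on CD and from 8.494 to 10.658 on HFD. Of 11 fast fibre genes 0 were called higher and 1 lower, Tnni2 at -0.095.

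The same genes were followed within strains. The HFD minus CD difference of Idh2 went with that of the mean of the fatty acid oxidation genes at r = 0.857 over 37 strains (permutation adjusted p = 0.00312, rho = 0.83), and at 0.861 without BXD56 and BXD98. It was 0.897, 0.879 and 0.948 in strains with both arrays in batch 1, both in batch 2 and different batches. With the slow fibre mean it was 0.724 (adjusted p = 0.0115, rho = 0.74), and 0.766 without BXD51 and BXD84. Fh1 (r = 0.669, adjusted p = 0.00312), Ogdh (0.61, adjusted p = 0.0135) and Suclg1 (0.593, adjusted p = 0.0228) were also called with fatty acid oxidation, 4 of 9 enzymes in all against 0.61% of probesets, and by rho Ogdh was not (adjusted p = 0.0805). The r of Ogdh was 0.454 and 0.798 in strains with both arrays in batch 1 and in batch 2, and 0.03 in those with arrays in different batches, whereas that of Fh1 and Suclg1 lay between 0.567 and 0.905 in each class. With the slow fibre mean Idh2 was the 1 enzyme called, against 0.141% of probesets. Whether fibre content of the pieces of muscle differed between pools was not measured.

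**Figure D5:**
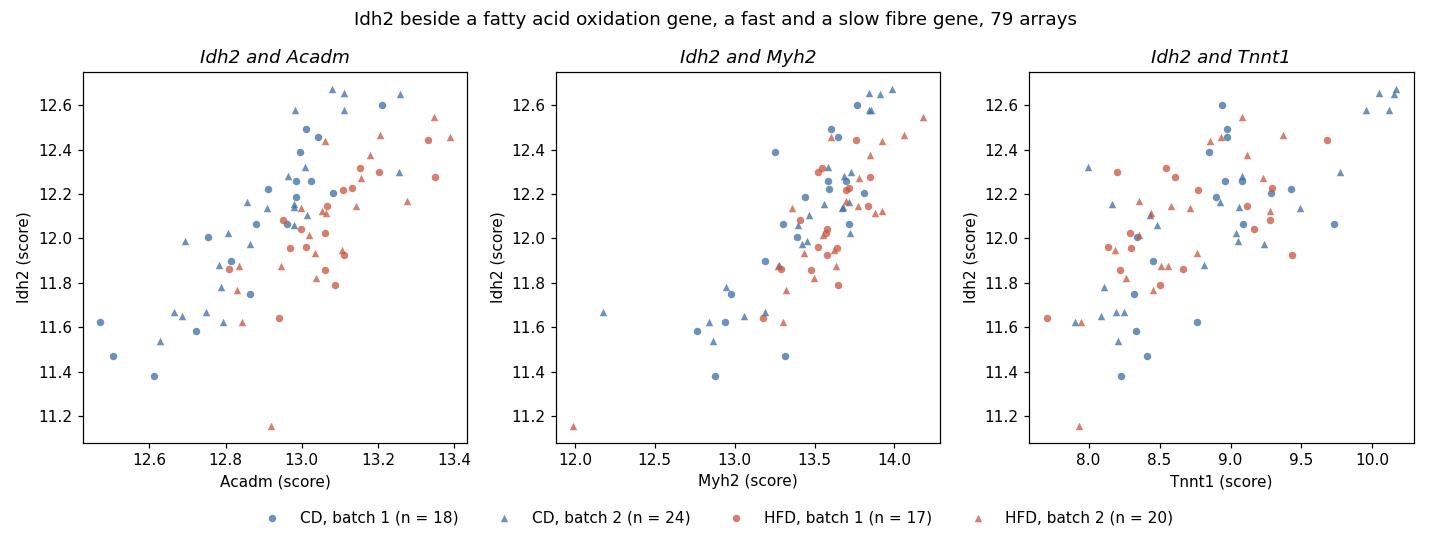
Score of Idh2 (vertical axis) against Acadm, Myh2 and Tnnt1 (horizontal axes) on 79 arrays, in blue for CD and red for HFD, with circles for batch 1 and triangles for batch 2. Idh2 rises with all 3 genes on both diets, most closely with Acadm on CD (r = 0.88), and for Acadm the diets overlap with the HFD arrays shifted to higher values.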

How the data were processed

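Pooled quadriceps RNA was hybridized to Affymetrix Mouse Gene 1.0 ST arrays. The values deposited by the authors are a score per probeset, with a mean of 8.0 and an SD of 2.0 on every array. Affymetrix Expression Console is named in the submitters' processing notes, and the summarization, log base and any batch correction are not given in the sources used here. Scaling every array to the same mean and SD removes differences in total signal. The precision is limited by the number of arrays, which have no read depth.

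Diet was fitted with limma 3.58.1 (lmFit and eBayes, R 4.3.3) with batch as a term, and p-values were adjusted by Benjamini-Hochberg over 35556 probesets, with calls at 0.05. Tests planned for log-scale values were run on the scores. Student's t-test, named in the methods of the study for arrays (the methods' t-test), was run as an alternative. Correlations used two-sided permutation tests with 100000 draws (Python 3.11.15, numpy 2.4.6, scipy 1.17.1). Strains were treated as clusters where 2 normal components lowered the BIC by 10 and Ashman's D exceeded 2, which no enzyme met. A gene was read from its brightest probeset. Scripts were tested on simulated data.

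The 9 enzymes and the gene lists were chosen with earlier results of these data known. From each list the 3 called genes with the largest diet difference were named at most, with the other cycle enzymes (1 of which is counted but not reported here), the 5 genes most like the 9, and Lep. Partners of single enzymes, the relations with list means and the counts over the 3556 brightest probesets were added after the values were seen. The chow column BXD92 was matched to the title BXD92a. Pairing by strain comes from the labels. Deviations of the 2 arrays of a strain from their diet means correlated with a median r of 0.214 (-0.136 to 0.395), and 33 of 37 exceeded 0.1.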

Additional observations from a re-analysis of the deposited data

How the results depend on the processing

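Each enzyme is read from 1 probeset and each strain from 1 array per diet, the differences between diets are smaller than the SD between strains for most enzymes, and the score has no stated unit, so small differences between enzymes are not resolved. The second-probeset alternative was not run because each enzyme has 1 probeset. Of the 9 enzymes 6 were called higher on HFD, and the count ran from 1 to 7 over 12 alternatives. It was 1 in batch 1 alone, where fewer arrays were tested. Repeated quantile normalization lost Idh3b. Centring arrays on their median added Idh3a. With strain as a fixed replicate block 14441 probesets were called and with strain as a random block 15007, against 13551, and either block added Idh3a (adjusted p = 0.00548 and 0.0348) and changed no other call of the 9.

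Over all probesets, the counts of 13551 called, 6703 higher and 6848 lower became 4491, 2068 and 2423 in batch 1 alone, 8691, 4337 and 4354 in batch 2 alone, and 5292, 3046 and 2246 with dim probesets left out. With arrays centred on their median 8199 were higher and 5758 lower. The other cycle enzymes called higher went from 5 to 0 in batch 1 (limma, 2 at an unadjusted p under 0.05), 0 in batch 2 (3 unadjusted) and 1 after quantile normalization, and to 6 with the fixed strain block, which added Sdhb. The difference of Idh2 changed sign to 0.008 with the strain block and 0.013 in batch 1, and it was called under none of the alternatives.

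The strain term called 4820 probesets, 2153 in strains with both arrays in batch 1 and 1722 with both in batch 2, and for the 9 enzymes 2 became 1 and 0 (2 at an unadjusted limma p under 0.05), and 1 with arrays centred on their median. The cross-diet r called 3770, then 805, 1204 and 0 (3210 at an unadjusted permutation p under 0.05) in strains with both arrays in batch 1, both in batch 2 and different batches. For the 9 enzymes 5 became 1, 1 and 0 (1 at an unadjusted p under 0.05), 1 with arrays centred on their median, and 3 by rho. The r of Cs turned to -0.005 (both in batch 2) and -0.663 (different batches), that of Fh1 to -0.046 and that of Mdh2 to -0.477 (different batches), none of them called. Pairs of enzymes called on HFD went from 8 to 5 with arrays centred on their median. The median range over the 9 enzymes went from 0.462 on CD and 0.423 on HFD to 0.267 on each diet between the 10th and 90th percentile. Beyond fewer strains or arrays, the cause of these changes was not tested.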
